A study of Mus musculus with 9 samples.

Results

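Here the miR-146 and miR-155 families are described, of which miR-146a and miR-155 are known to be induced by the transcription factor NF-kB. The members are mmu-miR-146a-5p, mmu-miR-146b-5p and the 2 arms of the miR-155 hairpin, mmu-miR-155-5p and mmu-miR-155-3p. They were taken by name and make up 4 of the 946 mature miRNA rows in the liver small-RNA table. All mice were wild-type C57 BL6 animals aged 8 weeks with a mean weight of 20 g, and liver was taken 6 h after the APAP injection, a time that the Control labels give as well. The Control group received saline, and the APAP group received 500 mg/kg acetaminophen by intraperitoneal injection. The dmPGE2+APAP group received 300 µg/kg of the prostaglandin E2 analog dmPGE2 intraperitoneally 1 h ahead of that acetaminophen dose. Each group has 3 libraries, and no group with dmPGE2 alone was analysed here. The labels do not say whether replicate libraries come from separate animals, so each p-value reflects only library-to-library spread, part of which may be technical.

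NF-kB is held in the cytoplasm by inhibitor proteins and moves to the nucleus when Toll-like receptors, the interleukin-1 receptor or the TNF receptor are engaged. Among its targets are the genes of miR-146a and of the BIC transcript that carries miR-155. miR-146a represses the adaptors TRAF6 and IRAK1 and so feeds back on the pathway, whereas miR-155 represses the inhibitors SHIP1 and SOCS1 and is abundant in activated macrophages and lymphocytes. Overdose of acetaminophen kills hepatocytes through a reactive metabolite, and Kupffer cells, the resident macrophages of the liver, and recruited leukocytes respond to the dying cells.

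The 4 mature sequences, from RefSeq on GRCm38.p6, are shown because the seed (bases 2 to 8, in capitals) is the stretch that pairs with target messenger RNAs and because the miR-146 rows are told apart by few bases.
miR-146a-5p: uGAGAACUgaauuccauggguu
miR-146b-5p: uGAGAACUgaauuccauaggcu
miR-155-5p: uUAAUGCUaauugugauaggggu
miR-155-3p: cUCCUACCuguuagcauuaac
miR-146a-5p lies on the minus strand at chr11:43374435-43374456 and miR-146b-5p on the plus strand at chr19:46342790-46342811. The miR-155 arms lie on the plus strand at chr16:84714143-84714165 (5p) and chr16:84714182-84714202 (3p). miR-146a-5p and miR-146b-5p are each 22 bases long and share the first 17 bases. Counted from the 5′ end of miR-146a-5p, they differ by G18A and U21C, so a read that stops before base 18 cannot be given to either. Of 1679 mature miRNA names searched, only these 2 carry the seed GAGAACU. The seeds of the miR-155 arms were each shared with 0 other names.

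Libraries held between 1038799 reads (dmPGE2+APAP replicate 2) and 10483460 reads (Control replicate 3). Levels are read counts relative to the library total (CPM), scaled between libraries by the TMM method of edgeR. As a check of the labelled tissue, the hepatocyte rows miR-122-5p, miR-192-5p and miR-194-5p together held 26.3% to 31.5% of the reads of Control libraries, 26.9% to 28.6% for APAP and 29.1% to 31.3% for dmPGE2+APAP. dmPGE2+APAP replicate 2, the shallowest library, was the highest of the 9 libraries for 93 of the 360 miRNAs tested, against 7 to 60 for each of the others.

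The members differed by orders of magnitude in level, and none of those tested was called between treatments. Averaged over the 9 libraries, miR-146a-5p stood at 299 CPM (rank 61 of the 946 rows), miR-146b-5p at 87.0 CPM (rank 94), miR-155-5p at 3.45 CPM (rank 283) and miR-155-3p at 0.0303 CPM (rank 793). Their summed reads over all libraries were 18081, 5067, 209 and 2. miR-155-3p was too low to be tested, so 3 of the 4 members passed the filter on low counts. By edgeR's quasi-likelihood test, adjusted over 360 miRNAs, 0 of these 3 differed between APAP and Control, where 3 of 360 miRNAs (0.833%) were called. Between dmPGE2+APAP and APAP 0 of 3 were called, against 1 of 360 (0.278%), and between dmPGE2+APAP and Control 0 of 3, against 1 of 360 (0.278%). At an unadjusted p below 0.05 the count was also 0 in each comparison with edgeR, DESeq2 and limma-voom, and by edgeR 9.72%, 6.39% and 10.6% of all tested miRNAs were below it. With so few miRNAs called in the table, a count of 0 among 3 is close to the background. In whole liver, fewer cells of a type and less RNA per cell cannot be told apart.

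**Figure D1:**
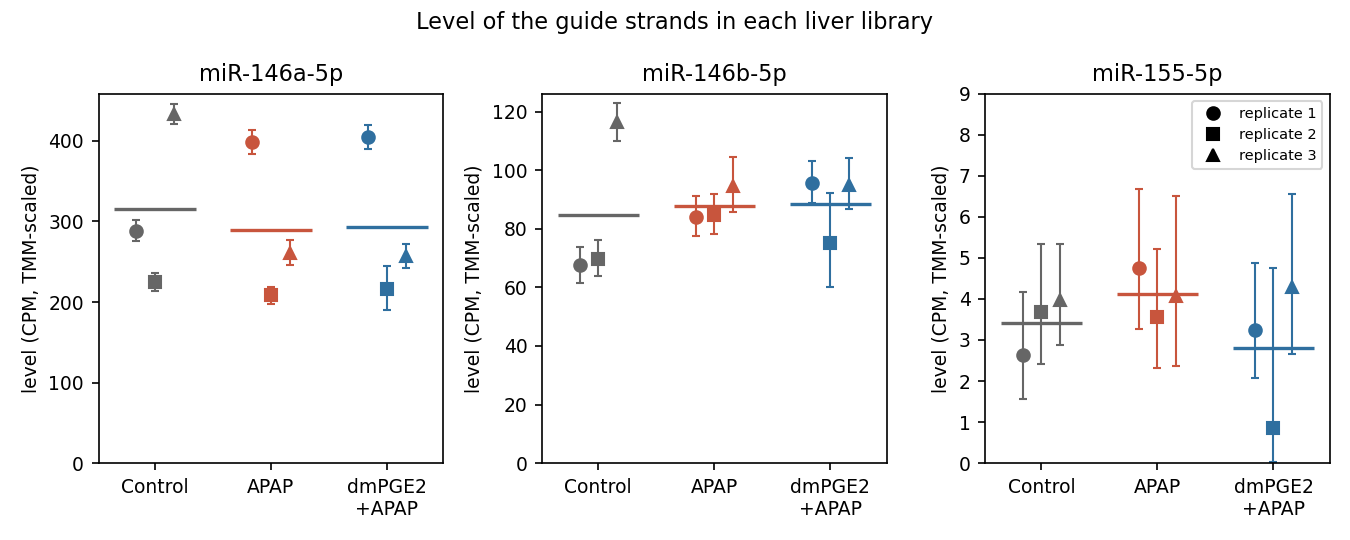
Level of the 3 tested members in every library, in TMM-scaled CPM on linear axes that differ between panels; points are the libraries of each group (shape marks the replicate), horizontal bars are group means and vertical lines are exact Poisson 95% intervals of the counts. The 3 groups overlap in each panel, and the miR-155-5p point of dmPGE2+APAP replicate 2 rests on 1 read.

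miR-146a-5p, the feedback repressor of TRAF6 and IRAK1, had near-equal group means. In Control it stood at 289, 225 and 433 CPM in replicates 1, 2 and 3. APAP libraries held 399, 208 and 261 CPM, and dmPGE2+APAP libraries held 405, 216 and 257 CPM. Each group holds a low library (208 to 225 CPM) and a high library (399 to 433 CPM), so the groups overlap throughout. The high library was replicate 3 in Control and replicate 1 in both treated groups. The mean of the Control libraries was 316 ± 107 CPM, that of the APAP libraries 289 ± 98.4 and that of the dmPGE2+APAP libraries 293 ± 99.2 (SD, n = 3 each).

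The log2 fold change of miR-146a-5p between APAP and Control was -0.13 (SE 0.30, edgeR adjusted p = 0.920). Its 95% interval runs from 0.590-fold to 1.42-fold, so a doubling of miR-146a-5p lies outside it. With dmPGE2 before APAP, compared with APAP alone, the log2 fold change was 0.02 (SE 0.30, edgeR adjusted p = 0.993), with an interval of 0.653-fold to 1.58-fold. Against Control the dmPGE2+APAP group was at -0.10 (SE 0.30, edgeR adjusted p = 0.893), with an interval of 0.598-fold to 1.45-fold. Without Control replicate 3 the direction of both differences from Control turned, to 0.17 for APAP (SE 0.31, edgeR adjusted p = 0.866) and 0.20 for dmPGE2+APAP (edgeR adjusted p = 0.831).

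miR-146b-5p, which has the same seed but is transcribed from another chromosome, stood at 67.5, 69.8 and 116 CPM in Control. APAP libraries stood at 84.1, 84.8 and 94.7 CPM, and dmPGE2+APAP libraries at 95.7, 75.0 and 95.1 CPM. Control replicates 1 and 2 were the lowest of the 9 libraries and Control replicate 3 was the highest, so the Control range covers both treated groups. Control averaged 84.6 ± 27.6 CPM, APAP 87.9 ± 5.94 and dmPGE2+APAP 88.6 ± 11.8 (SD, n = 3 each).

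The log2 fold change of miR-146b-5p between APAP and Control was 0.05 (SE 0.23, edgeR adjusted p = 0.961), with an interval of 0.736-fold to 1.46-fold. It was 0.02 between dmPGE2+APAP and APAP (SE 0.24, edgeR adjusted p = 0.993), with an interval of 0.718-fold to 1.44-fold. It was 0.07 between dmPGE2+APAP and Control (SE 0.23, edgeR adjusted p = 0.894), with an interval of 0.745-fold to 1.49-fold. Without Control replicate 3 the difference of APAP from Control grew to 0.35 (SE 0.19, edgeR adjusted p = 0.560) and that of dmPGE2+APAP to 0.38 (SE 0.20, edgeR adjusted p = 0.495), and neither passed the threshold of 0.05.

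Both miR-146 members were less even among the Control libraries than most miRNAs. Both were highest in Control replicate 3, which was the highest of the 9 libraries for 60 of the 360 miRNAs tested. The coefficient of variation over the 3 Control libraries was 33.8% for miR-146a-5p and 32.6% for miR-146b-5p, against a median of 22.5% over the tested miRNAs. For miR-146a-5p 75.3% of tested miRNAs had a lower value, and for miR-146b-5p 71.7% did. miR-155-5p, at 20.3%, was near the middle. It rests on 18, 27 and 43 reads with overlapping Poisson intervals, so its coefficient cannot be told apart from counting error. In the treated groups the coefficient of miR-146a-5p was 34.0% (APAP) and 33.9% (dmPGE2+APAP). That of miR-146b-5p was lower there, at 6.77% and 13.3%. No median over the tested miRNAs was taken for the treated groups. The Control value of miR-146b-5p rests on replicate 3, at 116 CPM against 67.5 and 69.8 CPM.

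**Figure D2:**
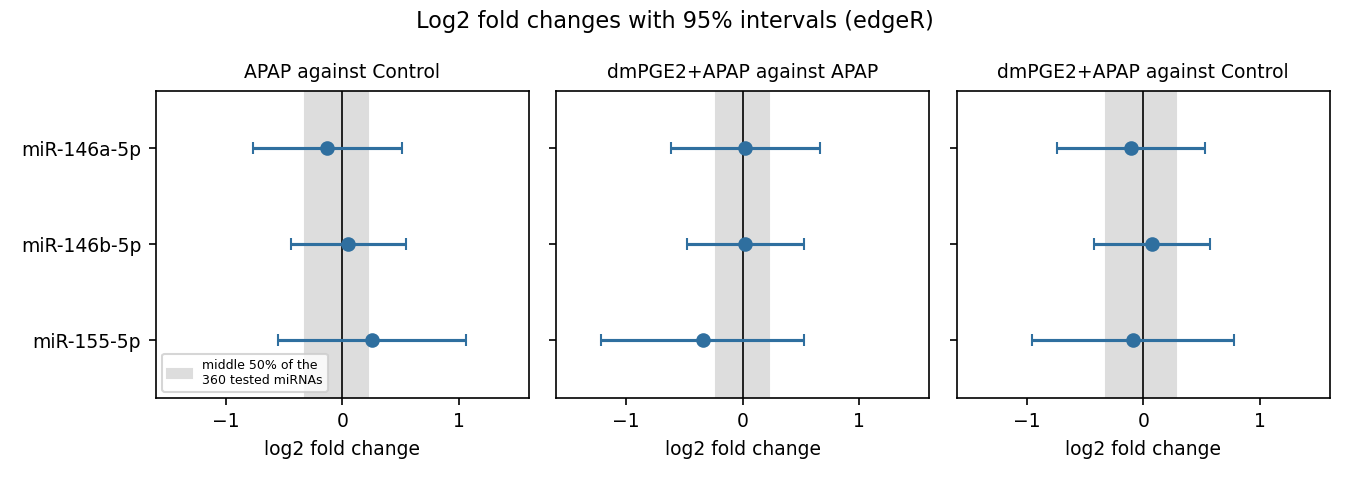
Log2 fold change of the 3 tested members in each comparison. Points are edgeR estimates, lines are 95% intervals and the grey band holds the middle 50% of the 360 tested miRNAs. Every member interval includes 0. The intervals of miR-155-5p are the widest of the 3 members in each comparison.

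The balance between the pair was read from the reads counted to each row. The pair differs only at bases 18 and 21, and the mismatch and counting settings were not given. Short or mismatched reads could thus be counted to either row, and their part in the shares was not tested. miR-146a-5p made up 81.1%, 76.3% and 78.8% of the reads of both rows in Control. After APAP its share was 82.6%, 71.1% and 73.4%, and after dmPGE2 with APAP 80.9%, 74.3% and 73.0%. Replicate 1 had the highest share in each group, and the group ranges overlap. The exact (Clopper-Pearson) 95% interval of the deeper libraries is narrow, for example 77.8% to 79.9% in Control replicate 3. In the shallowest library it is 69.3% to 78.8%. Libraries of one group therefore differed by more than counting error, as in APAP, where replicate 1 (81.3% to 83.9%) and replicate 2 (69.1% to 73.0%) do not overlap. The mean share was 78.7% ± 2.38 among Control libraries, 75.7% ± 6.10 after APAP and 76.0% ± 4.24 after dmPGE2 with APAP (SD, n = 3 each).

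**Figure D3:**
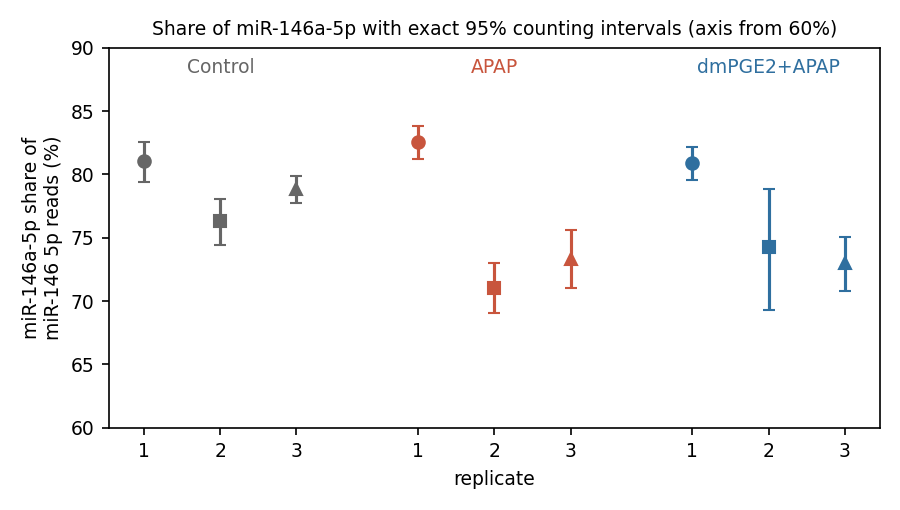
Share of miR-146a-5p in the reads of miR-146a-5p and miR-146b-5p together, in percent, for each of the 9 libraries. Lines are exact 95% intervals of the counts and cover counting error only, not the assignment of reads to the 2 rows. Shapes mark the replicate, and the axis starts at 60%. The spread among the 3 APAP libraries, from 71.1% to 82.6%, is as wide as the spread over all 9.

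miR-155-5p, the guide arm of miR-155, was present at a few CPM in whole liver. It stood at 2.64, 3.67 and 3.96 CPM in Control, from 18, 27 and 43 reads. In APAP it stood at 4.75, 3.56 and 4.07 CPM, from 33, 26 and 17 reads. In dmPGE2+APAP it stood at 3.25, 0.852 and 4.29 CPM, from 23, 1 and 21 reads. The APAP libraries lie within or just above the Control range. The low value of dmPGE2+APAP replicate 2 rests on 1 read, whose exact Poisson 95% interval of 0.0216 to 4.75 CPM holds all the other libraries except APAP replicate 1, which lies at its upper end.

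For miR-155-5p Control averaged 3.42 ± 0.693 CPM, APAP 4.13 ± 0.597 and dmPGE2+APAP 2.80 ± 1.76 (SD, n = 3 each). Pooling the reads of a group, which gives the shallow library little weight, gave Control a level of 3.52 CPM (88 reads, Poisson interval 2.82 to 4.33). APAP came to 4.12 CPM (76 reads, 3.25 to 5.16) and dmPGE2+APAP to 3.43 CPM (45 reads, 2.50 to 4.58). The 3 intervals overlap. Between APAP and Control the log2 fold change was 0.26 (SE 0.38, edgeR adjusted p = 0.859), with an interval of 0.684-fold to 2.09-fold. The interval includes both no change and a doubling of miR-155-5p after APAP. Between dmPGE2+APAP and APAP it was -0.34 (SE 0.41, edgeR adjusted p = 0.913), with an interval of 0.430-fold to 1.44-fold, and leaving out 1 library moved it to between -0.60 (without dmPGE2+APAP replicate 3) and -0.14 (without dmPGE2+APAP replicate 2). For dmPGE2+APAP against Control it was -0.09 (SE 0.41, edgeR adjusted p = 0.942), with an interval of 0.517-fold to 1.72-fold, and without dmPGE2+APAP replicate 2 it turned to 0.11.

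The opposite arms of the 3 hairpins were close to absent from the reads. The RefSeq hairpins are shown to place both arms, which are in capitals.
Mir146: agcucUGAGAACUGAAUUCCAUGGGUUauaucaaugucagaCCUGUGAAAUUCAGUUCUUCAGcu
Mir146b: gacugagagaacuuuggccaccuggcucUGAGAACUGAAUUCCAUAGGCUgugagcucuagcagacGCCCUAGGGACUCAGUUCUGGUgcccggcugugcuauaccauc
Mir155: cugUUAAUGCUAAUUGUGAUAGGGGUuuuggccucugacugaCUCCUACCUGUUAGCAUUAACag
Read base by base from the 5′ end, with no shift, the 3p arms of the miR-146 hairpins differ at 18 of 22 bases and the 5p arms at 2. miR-155-3p, the arm usually discarded, gave 1 read in Control replicate 2, 1 read in APAP replicate 2 and 0 reads in the dmPGE2+APAP libraries. A count of 0 there allows a level of up to 0.228 CPM over the group. miR-155-3p made up 0.948% of the 211 reads of both miR-155 arms (exact interval 0.115% to 3.38%). miR-146a-3p gave 7 reads, which is 0.0387% of the reads of its hairpin (0.0156% to 0.0797%). miR-146b-3p gave 5 reads, which is 0.0986% (0.0320% to 0.230%). There were thus 2583 reads of the 5p arm for each read of the 3p arm from the miR-146a hairpin, 1013.4 from that of miR-146b and 104.5 from that of miR-155. These counts are too small to compare groups, and the intervals cover counting error only.

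Other miRNAs known to be induced by NF-kB or Toll-like receptors were examined beside the members. Of a list of 14 names, chosen with earlier results of these data known, 13 matched a row and 10 were tested. Because of that choice, the counts describe the list and are no test of it. In APAP against Control 1 of the 10 rose by edgeR, miR-21a-3p, against 0.833% of all tested, and 0 fell, and 6 of 10 had a log2 fold change above 0. Over all tested miRNAs 44.7% were above 0. The median log2 fold change of the list was 0.19, against -0.05 over all tested. Between dmPGE2+APAP and APAP 0 of 10 were called, with 1 at an unadjusted p below 0.05 by edgeR, 1 by DESeq2 and 0 by limma-voom, and the median was 0.08 against 0.00. Between dmPGE2+APAP and Control 0 of 10 were called, with 2 at an unadjusted p below 0.05 by edgeR, 2 by DESeq2 and 1 by limma-voom, and the median was 0.56 against -0.03. By edgeR 6.39% and 10.6% of all tested miRNAs were below that unadjusted p in these comparisons, so the list's counts are near the background. Without dmPGE2+APAP replicate 2 the medians of the list were -0.07 and 0.27.

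miR-21a-3p, the passenger arm of the miR-21a hairpin, was the called member of that list. It stood at 11.0, 8.15 and 1.84 CPM in Control and at 28.9, 22.6 and 36.8 CPM in APAP. In dmPGE2+APAP it stood at 17.8, 15.3 and 15.9 CPM. The log2 fold change between APAP and Control was 2.09 (SE 0.44, edgeR adjusted p = 0.0284). The call was lost when Control replicate 2 (edgeR adjusted p = 0.0798), APAP replicate 1 (0.106), APAP replicate 3 (0.0940) or dmPGE2+APAP replicate 2 (0.0651) was left out. It was also lost with a fit that was not robust (0.0540), with only the 2 groups compared (0.0600), with a filter at a mean of 10 CPM (0.0777), and after thinning libraries to equal depth (0.980, with a log2 fold change of 0.97). Between dmPGE2+APAP and APAP the log2 fold change was -0.83 (SE 0.43, edgeR adjusted p = 0.731). The guide arm, miR-21a-5p, named after its values were seen, had a log2 fold change of -0.19 (SE 0.21, edgeR adjusted p = 0.791) between APAP and Control.

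3 further miRNAs of the list are named after their values were seen. miR-132-3p, which Toll-like receptor signals and CREB are known to induce, stood at 4.55, 5.84 and 5.16 CPM in Control and at 11.7, 3.15 and 13.2 CPM in APAP, so 1 APAP library lay below all Control libraries. Its log2 fold change was 0.82 (SE 0.44, edgeR adjusted p = 0.532). miR-187-3p, known to be induced by interleukin-10 in monocytes, stood at 3.74, 6.85 and 9.09 CPM in APAP and at 4.95, 29.0 and 15.1 CPM in dmPGE2+APAP, the highest value being that of the shallowest library. The log2 fold change was 1.19 (SE 0.50, edgeR adjusted p = 0.669), and 0.61 without that library. miR-9-5p, known to be induced by Toll-like receptor signals in monocytes and neutrophils, stood at 7.19, 3.80 and 4.88 CPM in Control and at 6.50, 29.0 and 7.16 CPM in dmPGE2+APAP. Its log2 fold change was 1.21 (SE 0.50, edgeR adjusted p = 0.336), and 0.37 without the shallowest library, which alone stood far above Control. None of these 3 passed the threshold in those comparisons.

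A list of 8 miRNAs reported to repress parts of NF-kB signalling had 7 tested members, and by edgeR 0 of 7 were called in each comparison. At an unadjusted p below 0.05 the count was 1 in APAP against Control, 1 in dmPGE2+APAP against APAP and 0 in dmPGE2+APAP against Control with each of edgeR, DESeq2 and limma-voom. By edgeR 9.72%, 6.39% and 10.6% of all tested miRNAs were below it. The numbers above 0 were 3, 2 and 2 of 7, beside 44.7%, 50% and 46.1% of all tested, and the median log2 fold changes were -0.01, -0.18 and -0.21. Without Control replicate 3 the medians against Control were 0.21 for APAP and 0.0089 for dmPGE2+APAP. miR-223-3p, a neutrophil miRNA reported to target IKK alpha, stood at 13.9, 10.7 and 15.8 CPM in Control. It stood at 34.8, 19.0 and 29.2 CPM after APAP, and at 18.4, 7.67 and 15.1 CPM with dmPGE2 before it. All 3 APAP libraries were above all libraries of the other groups. The log2 fold change was 1.03 between APAP and Control (SE 0.31, edgeR adjusted p = 0.125) and -0.93 between dmPGE2+APAP and APAP (SE 0.32, edgeR adjusted p = 0.326). The first passed the threshold with DESeq2 (adjusted p = 0.0409) and in none of the other alternatives. miR-10a-5p, reported to target TAK1, had a log2 fold change of -0.49 between APAP and Control (SE 0.26, edgeR adjusted p = 0.526).

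**Figure D4:**
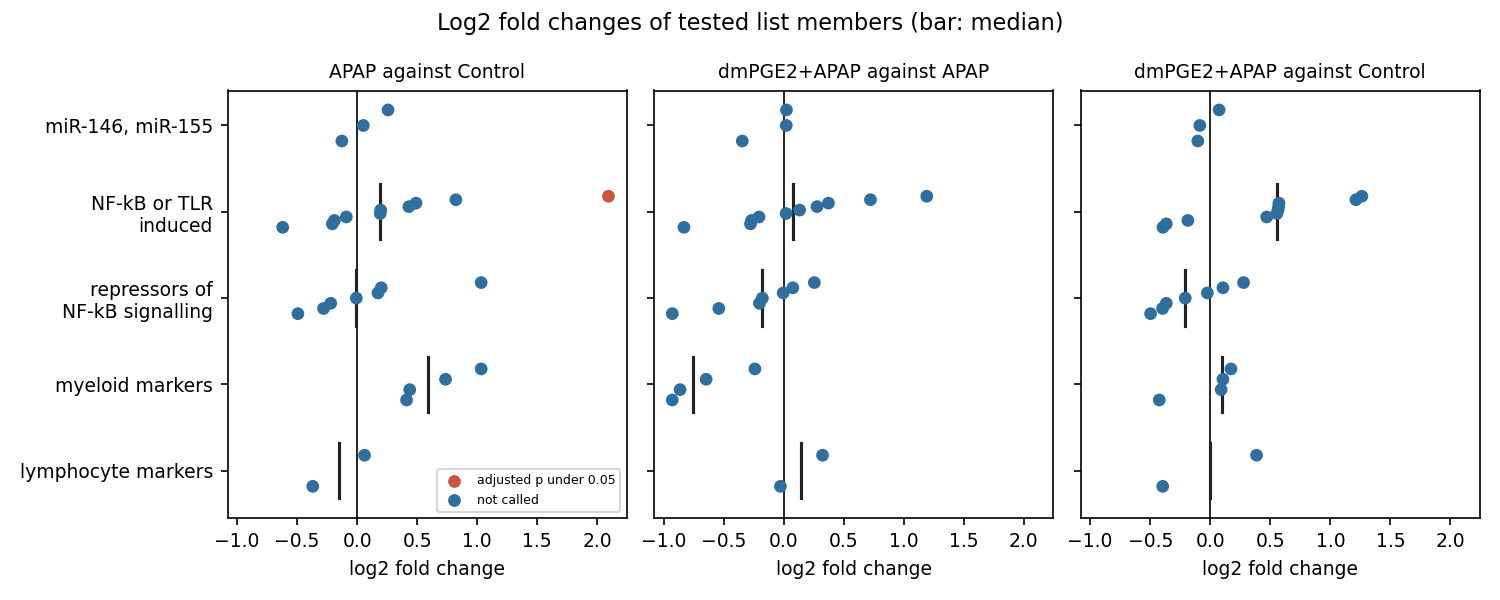
Log2 fold changes of the members, of the NF-kB or Toll-like receptor (TLR) induced list, of the repressors of NF-kB signalling and of the myeloid and lymphocyte markers, in each comparison. Points are miRNAs that passed the filter (red where called), and short bars are list medians. The member values lie between -0.34 and 0.26, and the red point at 2.09 is miR-21a-3p.

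miRNAs that mark cells which could carry miR-146 and miR-155 were read beside them. The myeloid rows miR-223-3p, miR-223-5p, miR-142a-3p and miR-142a-5p summed to 124 to 233 CPM in Control libraries, 177 to 319 after APAP and 153 to 238 after dmPGE2 with APAP. 4 of 4 had a log2 fold change above 0 in APAP against Control (median 0.59), and 0 of 4 in dmPGE2+APAP against APAP (median -0.75). These signs are not independent, since the rows are the paired arms of 2 hairpins and both comparisons use the APAP libraries. By edgeR 0 of 4 were called in either comparison, with 2 and 1 at an unadjusted p below 0.05 (2 and 2 with DESeq2, 2 and 1 with limma-voom). Over all tested miRNAs 44.7% and 50% were above 0, and 9.72% and 6.39% were below that unadjusted p by edgeR. With DESeq2 the first comparison had 1 call after adjustment, miR-223-3p. The lymphocyte rows miR-150-5p, miR-342-3p and miR-342-5p summed to 15.0 to 34.4, 20.8 to 34.1 and 27.9 to 31.9 CPM in the 3 groups, and the endothelial rows miR-126a-3p and miR-126a-5p to 7437 to 9115, 7990 to 9434 and 8788 to 10174 CPM. None of the marker rows was at 0 reads over the 9 libraries.

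The erythroid rows miR-451a, miR-144-3p, miR-144-5p and miR-486a-5p summed to 431 to 543 CPM in Control libraries, 731 to 1398 after APAP and 352 to 379 after dmPGE2 with APAP. Of these, miR-451a was called lower in dmPGE2+APAP than in APAP (log2 fold change -1.44, SE 0.25, edgeR adjusted p = 0.00993). The call was lost without APAP replicate 1 (edgeR adjusted p = 0.0618), dmPGE2+APAP replicate 2 (0.0531) or dmPGE2+APAP replicate 3 (0.0559), and with only the 2 groups compared (0.117). In that comparison 1 of the 4 rows was called by edgeR, against 1 of 360 miRNAs, and 3 by DESeq2, against 8 of 359. Between APAP and Control 0 of the 4 were called by edgeR, against 3 of 360, and 2 by DESeq2, against 13 of 296. In both comparisons all 4 were at an unadjusted p below 0.05 with edgeR, DESeq2 and limma-voom. By edgeR 6.39% and 9.72% of all tested miRNAs were below it. The 4 rows are not independent, since miR-144-3p and miR-144-5p are arms of 1 hairpin and both comparisons use the APAP libraries. The muscle rows miR-1a-3p, miR-133a-3p and miR-499-5p summed to 481 to 2699, 313 to 902 and 340 to 720 CPM. Control libraries were uneven, with miR-1a-3p at 2544, 1010 and 452 CPM in replicates 1, 2 and 3. Of the 3 rows, 0 were above 0 in APAP against Control, 1 in dmPGE2+APAP against APAP and 0 in dmPGE2+APAP against Control. Over all tested miRNAs 44.7%, 50% and 46.1% were above 0. By edgeR 0 of the 3 muscle rows were called in each comparison. The part of blood and immune cells in the levels of miR-146 and miR-155 was not tested.

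The miRNAs whose levels ran closest to each member were found from the root mean square difference of log2 CPM over the 9 libraries, each miRNA centred on its own mean. For miR-146a-5p the closest of 205 candidates was miR-16-5p (difference 0.217, r = 0.852), against a median difference of 0.495. miR-16-5p, a member of the miR-15/16 family, stood at 593, 494 and 808 CPM in Control libraries. APAP libraries held 739, 609 and 538 CPM and dmPGE2+APAP libraries 659, 445 and 534 CPM. Like miR-146a-5p it was highest in Control replicate 3. Next were let-7c-5p (0.299) and miR-195a-5p (0.300). Without dmPGE2+APAP replicate 2 miR-16-5p stayed closest (0.230), while let-7c-5p moved to rank 8 and miR-195a-5p to rank 10.

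For miR-146b-5p the closest were miR-122-3p (0.196), miR-455-3p (0.206) and miR-181a-5p (0.212), against a median of 0.388. Without dmPGE2+APAP replicate 2 these moved to ranks 11, 12 and 16, and miR-574-3p was closest (0.0962). The difference between miR-146a-5p and miR-146b-5p themselves was 0.323 over the 9 libraries (r = 0.564, rho = 0.483). For miR-155-5p the closest of 206 candidates was miR-10a-3p (0.334), then miR-15a-5p (0.399) and miR-501-3p (0.406), against a median of 0.675. In dmPGE2+APAP replicate 2 the centred log2 level was -1.59 for miR-155-5p and -0.76 for miR-10a-3p, both low. Without that library miR-10a-3p moved to rank 4, miR-15a-5p to rank 64 and miR-501-3p to rank 22, and miR-125b-5p was closest (0.152). The points of these likenesses share library and depth, and the order is a description of these libraries.

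**Figure D5:**
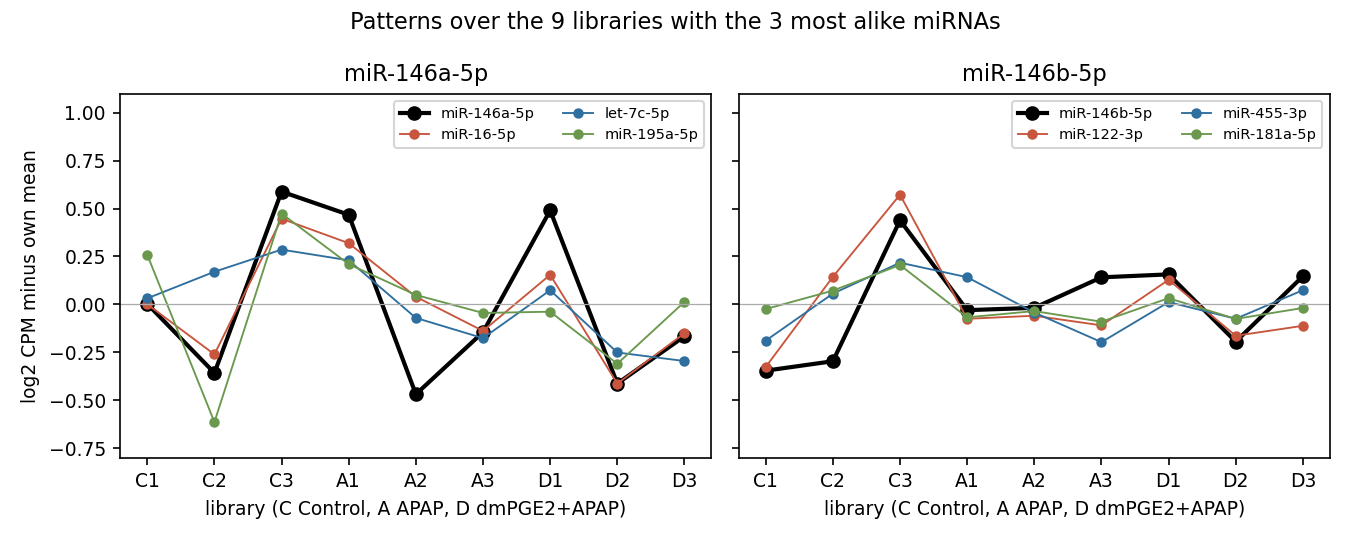
Log2 CPM of miR-146a-5p (left) and miR-146b-5p (right), each with the 3 miRNAs closest to it, centred on the mean over the 9 libraries (C Control, A APAP, D dmPGE2+APAP, with the replicate number). Lines join libraries for reading only, since replicates have no order. Control replicate 3 is the highest library of all 8 miRNAs drawn.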

How the data were processed

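Small-RNA libraries from liver total RNA were counted per mature miRNA by the authors. The deposited counts are whole reads per row, per the file headers. TPM columns were deposited beside them, and each value is the count over the library total times a constant (largest relative difference 0.000963%). They served 1 alternative. Per the submitters' processing notes, Bowtie and mm10 (the GRCm38 build) were used. For the aligner's version, counting tool, annotation, strand and mismatches, the settings were not given in the sources used here. APAP and dmPGE2+APAP columns match the labels by name. The other 3 libraries, headed by another prefix, were assigned to Control by elimination, and 0 value columns went unused. No other row held nearly the same counts as miR-146a-5p, miR-146b-5p or miR-155-5p (within 5% or 2 reads in every library). miR-155-3p had too few reads for this check, while miR-142b holds the same counts as miR-142a-3p. The check finds only rows that are alike as a whole, so it cannot exclude reads shared in part, as between the miR-146 rows.

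Counts of all 9 libraries entered 1 fit with 3 group means in edgeR 4.0.16 (R 4.3.3), with TMM scaling (factors 0.756 to 1.19), its robust quasi-likelihood test and the filterByExpr filter at a minimum count of 10 and a minimum total of 15. Adjusted p-values are Benjamini-Hochberg over 360 miRNAs, with a threshold of 0.05. Standard errors come from the F statistic, and 95% intervals from the t distribution. Log2 CPM for likenesses used a prior count of 2 and candidates with a mean of at least 10 CPM. The limit that 0 reads allow is 3 reads over the group. PCR copies are not independent molecules, so Poisson and Clopper-Pearson intervals and this limit cover counting error only. Alternatives covered scaling, filter, test (DESeq2 1.42.0, limma-voom in limma 3.58.1), libraries, depth and unit.

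The text names the 4 members and the opposite arms of the miR-146 hairpins. Of each pathway list it names called members, or otherwise the 2 with the lowest unadjusted p in APAP against Control, and for each tested member the 3 closest miRNAs. It names all rows of the marker lists. Names outside this rule (miR-21a-5p, miR-132-3p, miR-187-3p, miR-9-5p, and the closest miRNAs without the shallowest library) were added after their values were seen. The members and lists were chosen with earlier results of these data known. Sequences and coordinates (1-based) were found in RefSeq for 6 of the 6 arms looked up. Correlations of deviations ran from -0.25 to 0.17 between same-numbered libraries of different groups, and from -0.28 to 0.15 between the others. The ranges are much alike, so replicate numbers were not used as pairs. The highest value was that of APAP replicate 1 with dmPGE2+APAP replicate 1.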

Additional observations from a re-analysis of the deposited data

How the results depend on the processing

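Of the 3 tested members, 0 were called in each comparison under each of 21 alternatives (19 for miR-155-5p, which a mean of at least 10 CPM and thinning to the shallowest depth removed), and the lowest adjusted p among them was 0.495. Of 183 such log2 fold changes 152 kept their sign and 31 did not. With library totals in place of TMM, which shifted the median miRNA by 0.25 in APAP against Control and 0.23 in dmPGE2+APAP against Control, miR-146a-5p was at 0.082 in the former, 0.070 in the latter and -0.012 in dmPGE2+APAP against APAP. miR-155-5p was then at 0.11 in dmPGE2+APAP against Control, and miR-146b-5p at -0.0084 in dmPGE2+APAP against APAP. Thinned to equal depth, miR-146a-5p was at 0.16, 0.027 and -0.13 in the same order, and miR-146b-5p at -0.20 in APAP against Control. With log2(TPM + 1), miR-146a-5p was at 0.13 and 0.14 against Control, and miR-146b-5p at -0.0048 in dmPGE2+APAP against APAP. With no filter, miR-146b-5p was at -0.032 in APAP against Control, -0.032 in dmPGE2+APAP against Control and -6.4e-05 in dmPGE2+APAP against APAP. The cause was not tested. Leaving out each library in turn gave miR-146a-5p -0.43 to 0.17 in APAP against Control, -0.25 to 0.33 in dmPGE2+APAP against APAP and -0.38 to 0.20 in dmPGE2+APAP against Control. It gave miR-146b-5p -0.10 to 0.35, -0.0097 to 0.12 and -0.037 to 0.38, and miR-155-5p 0.14 to 0.38, -0.60 to -0.14 and -0.33 to 0.11. With the replicate block, 0 members were called in each comparison, and 0, 2 and 1 miRNAs of the whole table. The whole-table counts of 3, 1 and 1 were 13, 8 and 2 with DESeq2, 9, 9 and 2 with no filter, 8, 1 and 2 with library totals, 7, 1 and 2 with DESeq2 size factors, 8, 1 and 1 with log2(TPM + 1), 7, 0 and 0 with only the 2 groups compared, and 0, 1 and 0 with a mean of at least 10 CPM or thinned. Leaving out 1 library gave 0 to 9 (0 when APAP replicate 1, APAP replicate 3 or Control replicate 2 was left out, 9 when APAP replicate 2 was), 0 to 5 and 0 to 2. The call of miR-21a-3p passed in 12 of 21 alternatives, with log2 fold changes of 0.97 to 2.67 and adjusted p up to 0.980 (0.0809 with the replicate block). At 2 reads, miR-155-3p entered the fit only in the alternative with no filter, where 0 of 4 members were called in each comparison.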
